A study of Mus musculus with 45 samples.

Results

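The 7 genes described here encode factors that are made in pluripotent cells of more than 1 state, naive and primed, and are therefore called general pluripotency factors: Pou5f1 (whose protein is Oct4), Sox2, Sall4, Utf1, Dppa2, Dppa4 and Dppa5a. They were picked by symbol from the 35372 genes counted in each of 45 RNA-seq libraries, and all 7 passed the filter on low counts. The cells were mouse embryonic stem cells (ESCs) of a single male line, E14tg2a in the study's methods, wild type on a 129/Ola background. Before differentiation they were kept in 2iL (serum-free N2B27 medium with LIF, the GSK3 inhibitor CHIR99021 and the MEK inhibitor PD0325901, for at most 3 passages) or in SL (serum with LIF). They were then moved to 1 of 3 courses: EB, embryoid bodies in suspension in serum without LIF; FA, a monolayer in N2B27 with Fgf2 and Activin A, labelled EpiSC; and N2B27, a monolayer in N2B27 alone, labelled Neural. RNA was taken on days 0, 1, 1.5, 2, 2.5, 3, 5 and 7. The 23 libraries from 2iL include 3 at day 0 and the 22 from SL include 1 at day 0. The 3 day 0 libraries from 2iL carry the course labels EB, EpiSC and Neural, and that from SL carries none. Each other combination of medium, course and day had 1 library, and FA day 5 from 2iL was not analysed here.

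Oct4 and Sox2 are DNA-binding proteins that bind side by side at a composite element of many stem cell genes, their own included, and a mouse embryo without either protein forms no lasting epiblast. Sall4 is a zinc finger protein that binds the chromatin-remodelling complex NuRD. Utf1 is a chromatin-associated protein of the epiblast and ESCs, and its gene is a classical target of Oct4 and Sox2. Dppa2 and Dppa4 are SAP-domain proteins that bind to each other, and their genes lie next to each other. Dppa5a (Esg1) encodes a KH-domain RNA-binding protein that is abundant in ESCs.

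In the GRCm38 assembly with the GENCODE M21 annotation, Pou5f1 (ENSMUSG00000024406) lies at chr17:35506018-35510772 on the plus strand and Sox2 (ENSMUSG00000074637) is a single exon at chr3:34650405-34652461, inside the longer Sox2ot gene of the same strand but sharing none of its exon bases. Sall4 (ENSMUSG00000027547) lies at chr2:168748332-168767943 on the minus strand and Utf1 (ENSMUSG00000047751) at chr7:139943789-139945112 on the plus strand. Dppa4 (ENSMUSG00000058550, chr16:48283733-48294237) and Dppa2 (ENSMUSG00000072419, chr16:48303908-48319723) are both on the plus strand with 9670 bases between them, and Dppa5a (ENSMUSG00000060461) lies at chr9:78367052-78368177 on the minus strand. Antisense genes overlap exons of Pou5f1 (Gm19553) and Sall4 (Gm14261), but the counts were strand-specific and no library held more than 4 and 33 reads of them. Parts of Dppa2, Dppa4 and Dppa5a recur in other genes, largely pseudogenes: 29.1%, 31.3% and 38.6% of their 50-base words were also found in other annotated transcripts, against 0.561% for Pou5f1 and 0 for Sox2, Sall4 and Utf1. Reads from those stretches could be split between copies or dropped, so the levels of the 3 Dppa genes are less certain than those of the other genes. Any effect on their changes over time was not tested.

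The sequences just before the RefSeq start sites (GRCm38.p6) were at hand for 3 of the 7 genes, Pou5f1, Sox2 and Utf1, and are shown because their transcripts followed 3 different paths after 2iL, described below gene by gene. They read, 5′ to 3′ on the plus strand, with GC boxes (GGGCGG or its reverse complement) and nuclear receptor core sites (AGGTCA or its reverse complement) in capitals, and they run no further than the first base of the GENCODE gene. Pou5f1 is chr17:35505782-35506017, Sox2 chr3:34649745-34649994 and Utf1 chr7:139943606-139943788.
Pou5f1: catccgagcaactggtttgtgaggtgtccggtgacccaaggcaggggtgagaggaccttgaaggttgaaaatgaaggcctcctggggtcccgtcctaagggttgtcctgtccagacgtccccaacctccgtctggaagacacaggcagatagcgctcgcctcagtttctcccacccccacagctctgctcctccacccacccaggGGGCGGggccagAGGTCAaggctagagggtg
Sox2: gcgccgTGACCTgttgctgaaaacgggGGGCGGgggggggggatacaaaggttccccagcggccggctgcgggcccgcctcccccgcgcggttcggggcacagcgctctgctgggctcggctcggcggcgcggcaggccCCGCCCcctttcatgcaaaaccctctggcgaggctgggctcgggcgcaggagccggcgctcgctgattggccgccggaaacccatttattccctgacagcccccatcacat
Utf1: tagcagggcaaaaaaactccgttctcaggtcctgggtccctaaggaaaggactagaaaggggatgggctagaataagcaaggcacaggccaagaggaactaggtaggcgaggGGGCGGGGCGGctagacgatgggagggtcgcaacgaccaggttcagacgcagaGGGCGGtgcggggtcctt
In the whole 250 bases before the start, Utf1 held 4 GC boxes (3 of them in the letters shown, the first pair overlapping), Sox2 held 2 and Pou5f1 held 1. At least 1 GC box was present in 32.7% of the 32851 mouse windows of that length. AGGTCA occurred in Pou5f1 and in Sox2 but not in Utf1, and in 14% of all windows. The octamer ATGCAAAT, found in 1.60% of all windows, and the Sox core CATTGT, found in 10.7%, were absent from these letters in all 3. The windows hold 8 (Pou5f1), 27 (Sox2) and 14 (Utf1) CpG dinucleotides, against a median of 6 over all windows.

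The libraries held 13093226 to 39804240 counted reads, median 18222720, and the 8 EB libraries from 2iL were deeper (median 34490692) than the other 37 (median 17297450). Values below are CPM, read counts scaled to the same library total, and tests are edgeR quasi-likelihood tests over 17107 genes, called at an adjusted p under 0.05. To give each comparison an error, days 1, 1.5 and 2 are called early, days 2.5 and 3 mid, and days 5 and 7 late. The libraries of a course are serial samples and nothing says that they came from separate cultures, so p-values measure the spread between these libraries. RNA of a dish is an average, so fewer expressing cells and less RNA per cell cannot be told apart. The labels could be set beside markers. Late EB libraries had higher levels of 5 of 5 mesoderm markers than late FA or N2B27 libraries. Late N2B27 libraries had higher levels of 5 of 5 neural markers than EB. Against FA, Pax6, Tubb3 and Neurog2 were called higher in N2B27, and Sox1 and Nes were not called. For FA, labelled EpiSC, the primed epiblast markers Fgf5, Otx2, Pou3f1 and Dnmt3b were called lower than in EB early. Late, all of them were higher in FA than in N2B27, and only Otx2 was called lower than in EB. Late N2B27 libraries also had higher levels of 6 of 6 extraembryonic and definitive endoderm markers (Sox17, Gata4, Gata6, Foxa2, Dab2 and Cubn) than FA and of 5 of 6 than EB. The summed level of those 6 genes was 1160 to 2670 CPM in late N2B27, 115 to 356 in late FA and 120 to 914 in late EB, with no gene at 0 in all libraries of a course. Late, 18.9% of all genes were called between EB and FA, 45.2% between EB and N2B27 and 35.2% between FA and N2B27.

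**Figure D1:**
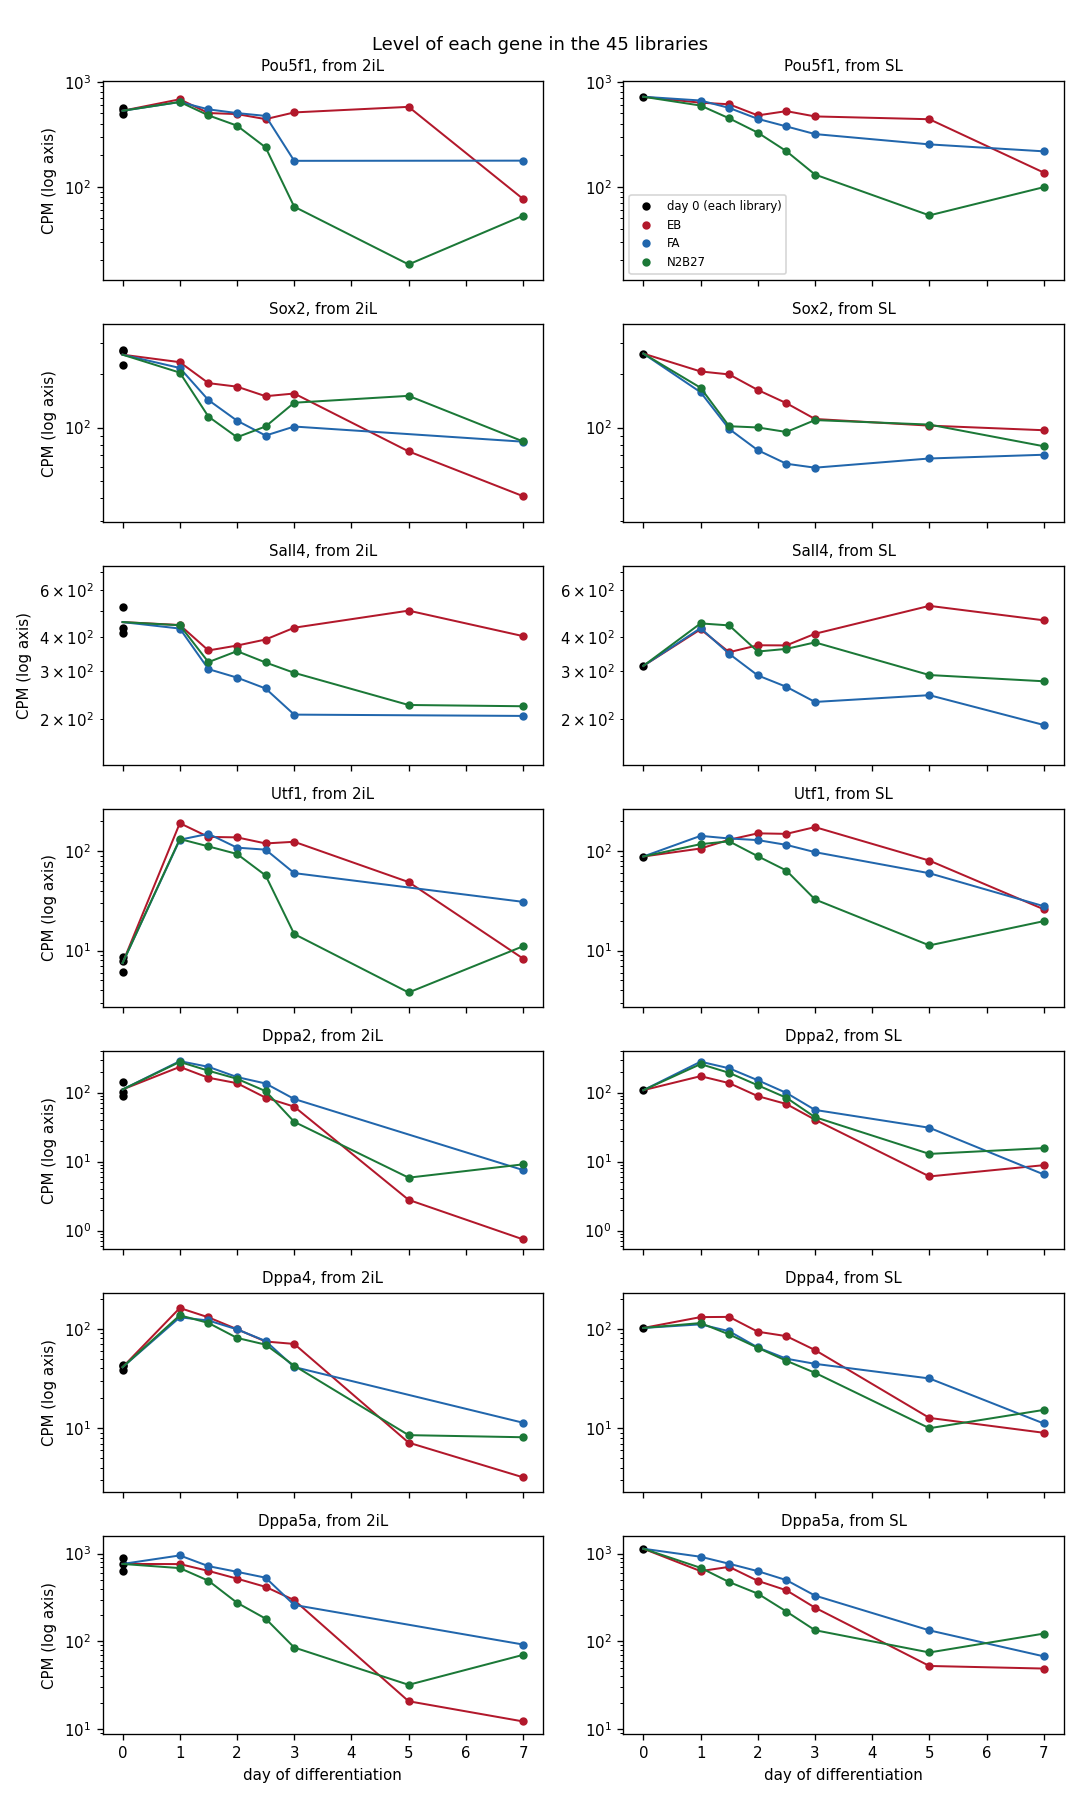
CPM of each gene (log axis) against the day of differentiation in cells from 2iL (left) and SL (right). Points are single libraries, black points are day 0, and lines start at the day 0 mean. Utf1 rises from 7.50 CPM in 2iL to between 129.9 and 190.7 CPM at day 1, Pou5f1 in EB stays between 439.4 and 679.9 CPM up to day 5, and Sall4 is highest in EB on days 5 and 7.

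The first question was how the starting cells differ between media. At day 0 Utf1 was 11.8 times lower in 2iL than in SL. It stood at 7.85, 8.58 and 6.07 CPM in the 3 libraries from 2iL and at 88.2 CPM in the library from SL. Dppa4 was also lower in 2iL, at 38.4, 43.4 and 41.9 CPM against 102.1 CPM, while Sall4 was higher, at 516.4, 417.0 and 434.1 CPM against 314.4 CPM. In all 3 genes no library from 2iL reached into the value from SL. The log2 differences (2iL minus SL) were -3.45 ± 0.577 (SE) for Utf1 (adjusted p = 5.5e-05), -1.20 ± 0.289 for Dppa4 (adjusted p = 0.0021) and 0.65 ± 0.155 for Sall4 (adjusted p = 0.0019). With these, 3 of the 7 genes were called, beside 35.1% of all genes tested.

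The 4 others missed the threshold at day 0. Pou5f1 averaged 529.0 ± 37.9 CPM (SD, n = 3) in 2iL against 718.5 CPM in SL, and the interval of the log2 difference ran from -1.67 to 1.01. Sox2 averaged 256.3 ± 26.5 CPM against 259.9 CPM (interval -0.52 to 0.71). Dppa2 averaged 111.2 ± 27.5 CPM against 108.6 CPM (interval -0.84 to 1.14) and Dppa5a 763.0 ± 122.0 CPM against 1137 CPM (interval -1.23 to 0.30). Only for Sox2 does the interval leave out a change as large as 2-fold in either direction. The library from SL is 1 library, so its error is borrowed from the other cells of the fit. It also held 426 CPM of the 6 endoderm markers, against 3.33 to 5.92 CPM in the libraries from 2iL, with all 6 markers called lower in 2iL, and 411 CPM of 6 two-cell genes (Zscan4 and Tcstv, near-identical copies, 6 of the 8 listed, none called) against 12.7 to 89.5 CPM. Their part in the differences above was not tested.

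Leaving 2iL was followed within a day by a rise of Utf1, Dppa4 and Dppa2. At day 1 Utf1 stood at 190.7 (EB), 129.9 (FA) and 132.2 CPM (N2B27), Dppa4 at 161.9, 130.5 and 136.8 CPM and Dppa2 at 236.4, 286.4 and 279.1 CPM. All 3 courses lay above all 3 day 0 libraries for each of these genes. The log2 changes from day 0 were 4.30 ± 0.505 for Utf1 (adjusted p = 2.5e-07), 1.75 ± 0.222 for Dppa4 (adjusted p = 4.8e-07) and 1.23 ± 0.338 for Dppa2 (adjusted p = 0.0053). Dppa2 lost its call, at an adjusted p of up to 0.07, when only the libraries from 2iL were fitted or the course terms were dropped. The 3 genes are 3 of 7, with 38.0% of all genes called. Pou5f1 (log2 change 0.27, interval -0.69 to 1.24), Sox2 (-0.27, interval -0.70 to 0.17), Sall4 (-0.09, interval -0.31 to 0.13) and Dppa5a (0.02, interval -0.54 to 0.58) missed the threshold.

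From SL the same day brought 1 call, with 21.9% of all genes called: Sall4 rose by 0.54 ± 0.154 on the log2 scale (adjusted p = 0.013), from 314.4 CPM to 428.8, 433.1 and 450.8 CPM. That call was lost without the N2B27 course (adjusted p = 0.068). Utf1 stood at 106.1, 142.2 and 117.4 CPM against 88.2 CPM at day 0, a log2 difference of 0.53 ± 0.627 (adjusted p = 0.59). Dppa2 stood at 173.4, 281.1 and 259.5 CPM against 108.6 CPM (log2 difference 1.17 ± 0.508, adjusted p = 0.10). Dppa4 stood at 131.2, 110.9 and 114.3 CPM against 102.1 CPM (0.28 ± 0.309, adjusted p = 0.56). A comparison added after these values were seen asked whether the change from day 0 to day 1 differed between 2iL and SL, and it called 13.8% of all genes and 3 of the 7: Utf1 (log2 difference of the changes 3.76 ± 0.729, adjusted p = 0.0011), Dppa4 (1.48 ± 0.362, adjusted p = 0.0066) and Sall4 (-0.63 ± 0.186, adjusted p = 0.022, lost without 1 day 0 library from 2iL or FA day 1 from SL). For Dppa2 that difference was 0.06, with an interval from -1.14 to 1.26, wide enough to hold more than a 2-fold difference either way.

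**Figure D2:**
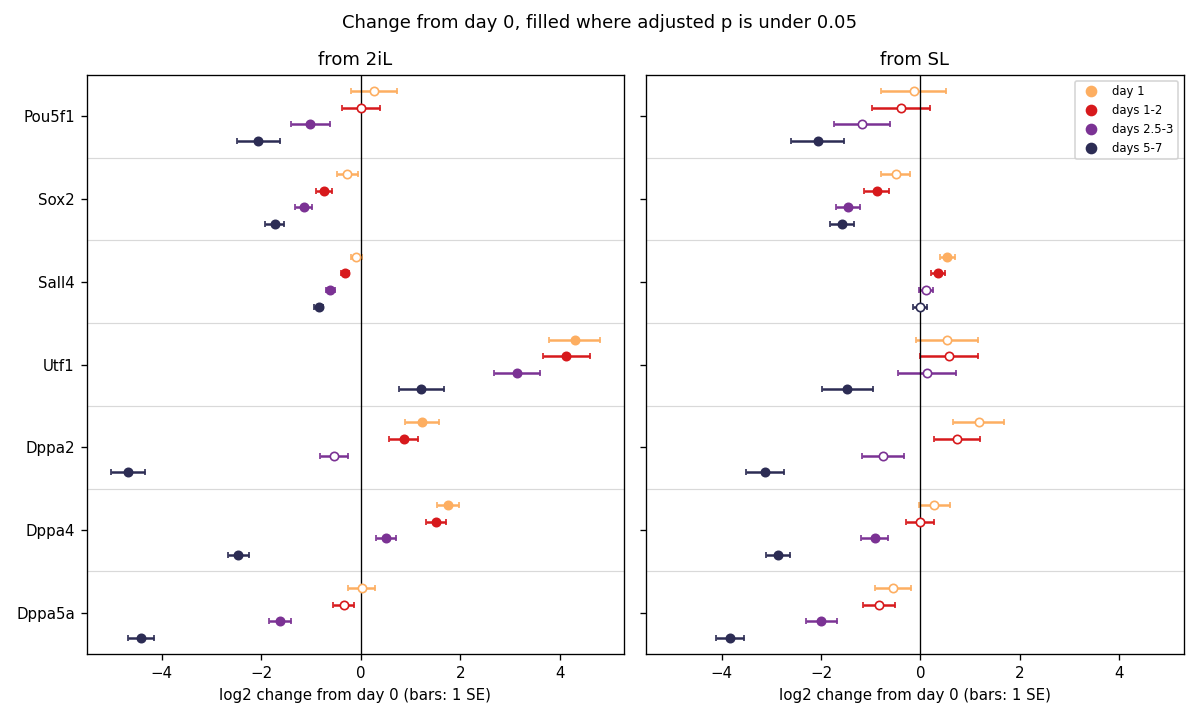
Log2 change from day 0 (x axis, bars 1 SE) of each gene for cells from 2iL (left) and SL (right) at day 1 and over the early, mid and late days. Filled points have an adjusted p under 0.05. From 2iL Utf1 lies to the right throughout, from 4.30 at day 1 to 1.22 late, and from SL it lies at -1.47 late.

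Over days 1 to 2 the genes from 2iL divided. Utf1 (4.13 ± 0.471), Dppa4 (1.51 ± 0.194) and Dppa2 (0.86 ± 0.287) were higher than at day 0 and Sox2 (-0.73 ± 0.164) and Sall4 (-0.32 ± 0.0847) were lower, on the log2 scale, so 5 of 7 were called with 52.5% of all genes. The calls of Sall4 and Dppa2 were lost with only the libraries from 2iL or without course terms, and that of Dppa2 also without 1 day 0 library (adjusted p = 0.09). From SL 2 of 7 were called with 32.9% of all genes: Sox2 fell by 0.88 ± 0.250 on the log2 scale and Sall4 rose by 0.36 ± 0.141 (adjusted p = 0.049), a call lost without any 1 of 6 of the 9 libraries. Over days 2.5 and 3, 6 of 7 were called from 2iL (61.7% of all genes), Utf1 and Dppa4 higher and Pou5f1, Sox2, Sall4 and Dppa5a lower than at day 0, and 3 of 7 from SL (36.6%), Sox2, Dppa4 and Dppa5a, all lower. The call of Pou5f1 from 2iL (-1.02 ± 0.392, adjusted p = 0.027) was lost without any 1 of 5 libraries and that of Dppa4 (0.51 ± 0.192, adjusted p = 0.024) without any 1 of 3. Over days 5 and 7 all 7 were called from 2iL (69.1%), 1 higher and 6 lower, and 6 of 7 from SL (44.9%), all lower.

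Pou5f1 encodes the POU-domain factor Oct4 and had a level that differed widely between courses. In EB from 2iL it stood at 679.9, 503.2, 491.7, 440.2, 510.0 and 576.1 CPM on days 1, 1.5, 2, 2.5, 3 and 5, and at 76.8 CPM on day 7. In EB from SL it stood at 631.0, 609.6, 477.9, 524.6, 467.2 and 439.4 CPM on the same days and at 136.6 CPM on day 7. Both embryoid body courses thus kept over 50% of the day 0 level to day 5 and had 14.5% and 19.0% of it at day 7.

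In N2B27 the level of Pou5f1 was lower sooner. From 2iL it stood at 641.4, 478.3, 381.8, 237.0, 64.7, 18.3 and 53.1 CPM on days 1, 1.5, 2, 2.5, 3, 5 and 7. From SL it stood at 592.8, 448.1, 327.6, 218.3, 130.9, 53.5 and 99.3 CPM. It was under 50% of the day 0 level from day 2.5 (2iL) and day 2 (SL), and in both media the lowest value was at day 5, not day 7. FA had 640.2, 545.3, 502.8, 472.4, 176.7 and, at day 7, 177.4 CPM from 2iL and 661.9, 562.6, 442.9, 375.3, 317.5, 253.3 and 217.5 CPM from SL. From 2iL it was the highest course on days 1.5, 2 and 2.5 and lay between the others at day 3. From SL it was the highest at day 1 and lay between the others from day 1.5 to day 5. At day 7 FA had the highest level of the 3 courses in both media.

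Tested over both media, Pou5f1 was higher in EB than in N2B27 by 1.67 ± 0.425 (mid, adjusted p = 0.0031) and 2.10 ± 0.472 (late, adjusted p = 0.00084) on the log2 scale, and higher in FA than in N2B27 by 1.91 ± 0.447 late (adjusted p = 0.0017). Early, no pair of courses was called for it, with log2 differences of 0.04 to 0.16. EB and FA were not called apart at any stage, and for the late days the interval of their difference was wide, -0.85 to 1.22, since day 5 and day 7 of EB stand so far apart. With only the libraries from 2iL these differences missed the threshold (adjusted p = 0.11 for EB at mid days, 0.051 for EB late and 0.11 for FA late). The increase from early to late was itself called for EB against N2B27 (1.94 ± 0.574, adjusted p = 0.014) and for FA against N2B27 (1.79 ± 0.554, adjusted p = 0.026), the first losing its call without EB day 5 of either medium and the second without FA day 7 of either medium or N2B27 day 5 from SL. From day 0 to the late days Pou5f1 fell by 2.06 ± 0.426 from 2iL and by 2.07 ± 0.531 from SL.

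Sox2, the HMG-box partner of Oct4, was already lower over the early days. At days 1.5 and 2 it stood at 142.6 and 109.3 CPM (FA) and 115.2 and 88.2 CPM (N2B27) from 2iL, against 225.7 to 272.8 CPM at day 0. From SL the same days gave 98.1 and 74.6 CPM (FA) and 101.7 and 100.1 CPM (N2B27), against 259.9 CPM. In EB it stood at 177.5 and 169.6 CPM from 2iL and at 198.6 and 162.5 CPM from SL, above both other courses on both days. Early, Sox2 was the only one of the 7 genes called between EB and FA (log2 difference 0.62 ± 0.149, adjusted p = 0.0034, with 24.0% of all genes called) and between EB and N2B27 (0.52 ± 0.149, adjusted p = 0.009, with 30.0%). At mid days it was still higher in EB than in FA (0.81 ± 0.184, adjusted p = 0.0017), and lower in FA than in N2B27 (-0.59 ± 0.184, adjusted p = 0.035), a call lost with library totals as the scale, with 2iL alone and without any 1 of 7 libraries.

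Late, the order of Sox2 depended on the medium the cells had left. From 2iL, EB had 73.5 and 41.2 CPM at days 5 and 7, N2B27 had 150.6 and 83.6 CPM, and FA had 83.3 CPM at day 7. From SL, EB had 102.5 and 96.6 CPM, N2B27 had 103.9 and 78.5 CPM, and FA had 67.0 and 70.4 CPM. EB was thus lowest from 2iL, and at day 7 highest from SL. The difference between media in EB minus FA was -1.44 ± 0.259 on the log2 scale (adjusted p = 0.0044), with 3.04% of all genes called, and in EB minus N2B27 it was -1.19 ± 0.222 (adjusted p = 0.013), with 0.789% called. Sox2 was the only one of the 7 called in either, and none was called for FA minus N2B27, with 0.0117% of all genes. The second call was lost without day 7 of EB or of N2B27 from SL. The pooled late difference of EB and N2B27 (-0.50 ± 0.186, adjusted p = 0.030) was lost without any 1 of the 4 EB and N2B27 libraries from 2iL and with library totals as the scale, and with only libraries from SL it was 0.0453 (adjusted p = 0.86).

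In N2B27 from 2iL Sox2 had a second, higher stretch, with 88.2 CPM at day 2, 101.4, 137.8 and 150.6 CPM at days 2.5, 3 and 5, and 83.6 CPM at day 7. From SL the same days gave 100.1, 94.4, 110.1, 103.9 and 78.5 CPM. Pou5f1 at these days in N2B27 went the other way, from 381.8 to 18.3 CPM between days 2 and 5 from 2iL. Sox2 is also known in neural progenitors, and the summed level of the 5 neural markers (Pax6, Sox1, Nes, Tubb3 and Neurog2) was 348 to 620 CPM in late N2B27 libraries, 174 to 376 in late FA and 97.5 to 262 in late EB, with no marker at 0 throughout. Their part in the level of Sox2 was not tested.

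Genes known as joint targets of Oct4 and Sox2 were followed as a list of 6 (Fgf4, Nanog, Fbxo15, Lefty1, Spp1 and Tdgf1). Over all genes, 69.1% (2iL) and 44.9% (SL) were called from day 0 to the late days, and 35.2% between FA and N2B27 late. From 2iL, 5 of 6 fell to the late days, with a median log2 change of -4.38 against -0.0151 over all genes, and from SL 5 of 6 fell, with a median of -3.55. Spp1, osteopontin, fell by 6.15 on the log2 scale from 2iL and Fbxo15 by 5.11. Lefty1, a Nodal antagonist, was the exception and rose from both media, by 1.87 and 4.92. Between FA and N2B27 late, 5 of 6 were higher in FA, led by Lefty1 (5.54), Nanog (3.44) and Tdgf1, the Nodal co-receptor Cripto (3.13), with Fbxo15 lower (-1.23).

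Sall4 had the smallest ratio of highest to lowest level of the 7 genes, from 190.3 to 523.2 CPM over the 45 libraries. In EB it stood between 358.3 and 502.4 CPM from 2iL and between 353.0 and 523.2 CPM from SL after day 0, with 404.7 and 462.8 CPM at day 7. In FA it was 205.5 and 190.3 CPM at day 7 and in N2B27 223.1 and 275.8 CPM. Every late EB library (404.7 to 523.2 CPM) lay above every late FA library (190.3 to 245.1 CPM) and every late N2B27 library (223.1 to 290.8 CPM). The log2 difference late was 1.13 ± 0.105 against FA (adjusted p = 4.0e-08) and 0.81 ± 0.0922 against N2B27 (adjusted p = 9.8e-08), and both were called in each medium fitted alone and without any 1 library.

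The separation of Sall4 between courses built up over time. Against FA the EB course was called at mid days too (0.73 ± 0.0922, adjusted p = 3.6e-06) but missed the threshold early (0.20 ± 0.0748, adjusted p = 0.055). The growth of the difference from early to late was called against FA (0.93 ± 0.128, adjusted p = 3.8e-05, with 8.56% of all genes called) and against N2B27 (0.94 ± 0.119, adjusted p = 2.3e-06, with 27.8%). FA lay below N2B27 at each stage, by 0.32 early, 0.57 at mid days and 0.31 late on the log2 scale. The early and late calls were lost with library totals as the scale, with 2iL alone and without any 1 of several libraries, and the mid call only with 2iL alone (adjusted p = 0.052). At day 0 the libraries from 2iL labelled EB, EpiSC and Neural stood at 524, 416.8 and 481.1 CPM on the TMM scale of the fit. The one labelled EpiSC, for FA, was thus lowest before the courses began. The model has no course term at day 0, and the part of this offset in the course differences was not tested. Sall4 was the only one of the 7 called early between FA and N2B27, where 1.63% of all genes were called. From 2iL it fell by 0.85 ± 0.0951 to the late days, and from SL its log2 change was -0.02 (interval -0.31 to 0.27), a difference between media that was called at -0.83 ± 0.175 (adjusted p = 0.00082) and that rests on the lower day 0 value in the single library from SL.

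Sall4 works with NuRD, and 11 genes of that complex were followed as a list. From 2iL to the late days 3 rose and 6 fell, with a median log2 change of -0.259, and from SL 3 rose and 1 fell, with a median of 0.00531. Over all genes 69.1% and 44.9% were called in these comparisons. Rbbp7, a histone-binding subunit, rose by 0.96 and 0.66 on the log2 scale. Mta1 rose by 0.92 and 0.77, and Mta3 fell by 0.57 and 1.05. Hdac1, a histone deacetylase, fell by 0.77 from 2iL and had a log2 change of -0.22 from SL (adjusted p = 0.30).

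Utf1 had the largest rise of the 7 genes from 2iL. From 7.50 ± 1.29 CPM at day 0 (SD, n = 3) it reached its highest level at day 1 in EB (190.7 CPM, 25.4 times day 0) and N2B27 (132.2 CPM, 17.6 times) and at day 1.5 in FA (149.1 CPM, 19.9 times). At day 7 it stood at 8.31 (EB), 30.9 (FA) and 11.03 CPM (N2B27), that is 111%, 411% and 147% of day 0. In N2B27 at day 5 it was at 3.79 CPM (66 reads, 95% Wilson interval 2.98 to 4.81 CPM), below every day 0 library. The late call above day 0 (1.22 ± 0.444, adjusted p = 0.017) was lost in 4 of 8 alternatives and without any 1 of 4 of its 8 libraries, EB day 5 among them (adjusted p = 0.53).

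From SL, Utf1 started at 88.2 CPM and stood above that in every library of days 1 to 2. It stood below that in every library of days 5 and 7. In EB it stood at 106.1, 130.0, 150.7, 148.9, 174.2, 80.2 and 26.0 CPM on days 1, 1.5, 2, 2.5, 3, 5 and 7. In N2B27 it stood at 117.4, 125.2, 88.8, 63.7, 32.6, 11.3 and 19.7 CPM on the same days, and in FA it stood between 142.2 CPM at day 1 and 27.9 CPM at day 7. Late it had fallen by 1.47 ± 0.518 on the log2 scale (adjusted p = 0.023), a call lost without EB or FA day 7. Over both media Utf1 was higher in EB than in N2B27 at mid days (1.82 ± 0.395, adjusted p = 0.00079) and late (1.52 ± 0.433, adjusted p = 0.0060), and higher in FA than in N2B27 (1.18 ± 0.385, adjusted p = 0.044 at mid days; 1.62 ± 0.438, adjusted p = 0.0055 late). In 3 of these 4 comparisons Pou5f1 was called higher too, and at mid days in FA against N2B27 it missed the threshold (1.03 ± 0.411, adjusted p = 0.10). Both genes had their lowest N2B27 level at day 5. Each of the 4 Utf1 differences was lost when some single library or 1 medium was left out, except the mid difference of EB and N2B27, which was lost only with the libraries from 2iL alone.

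Dppa2, Dppa4 and Dppa5a fell from both media by the late days. At day 7 Dppa2 stood at 0.745 CPM in EB from 2iL (28 reads, 95% Wilson interval 0.516 to 1.08 CPM), 317 times below its day 1 level, and at 6.52 to 15.7 CPM in the other 5 libraries of that day. Dppa4 stood at 3.22 CPM in the same EB library and at 8.14 to 15.3 CPM in the other 5. Dppa5a stood at 12.3 CPM there and at 49.2 to 122.9 CPM in the other 5. For all 3 genes the EB library from 2iL was the lowest of the 6 day 7 libraries.

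From day 0 to the late days Dppa2 fell by 4.68 ± 0.344 from 2iL and fell by 3.13 ± 0.377 from SL on the log2 scale. Dppa5a fell by 4.42 ± 0.263 and fell by 3.83 ± 0.285, and Dppa4 fell by 2.46 ± 0.206 and fell by 2.86 ± 0.243. These 6 falls were called under every alternative run. They did not start together. Over days 1 to 2 Dppa5a had a log2 change of -0.35 ± 0.215 from 2iL (adjusted p = 0.19) and -0.83 ± 0.321 from SL (adjusted p = 0.050), while Dppa2 and Dppa4 from 2iL were still above day 0. In all 6 courses the highest level of Dppa2 was at day 1, and that of Dppa4 at day 1 in 5 courses and day 1.5 in EB from SL. Dppa5a was highest at day 0 in 5 courses and at day 1 in FA from 2iL (953.7 CPM).

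Over both media together the late falls were deepest in EB, though not on each day from SL. At day 7 from SL Dppa2 stood at 8.88 CPM in EB and 6.52 CPM in FA. At day 5 from SL Dppa4 stood at 12.73 CPM in EB and 10.03 CPM in N2B27. Late, EB was lower than FA for Dppa2 (-1.57 ± 0.389, adjusted p = 0.0056), Dppa4 (-1.16 ± 0.231, adjusted p = 0.00086) and Dppa5a (-1.47 ± 0.276, adjusted p = 0.00052), and lower than N2B27 for Dppa2 (-1.53 ± 0.349, adjusted p = 0.00092), Dppa4 (-0.59 ± 0.211, adjusted p = 0.024) and Dppa5a (-1.28 ± 0.246, adjusted p = 0.00014). With libraries from SL alone the calls of Dppa2 and Dppa4 were lost against both courses and that of Dppa5a held. Without FA day 5 from SL the call of Dppa2 against FA was lost, and that of Dppa4 against N2B27 was lost without day 7 of EB from 2iL or of N2B27 from either medium. In early libraries none of the 3 was called between courses, and at mid days Dppa4 (0.52 ± 0.189, adjusted p = 0.033) and Dppa5a (1.07 ± 0.238, adjusted p = 9e-04) were higher in EB than in N2B27, the first lost without any 1 of 6 of the 8 libraries and the second with SL alone. The turn from early to late was called for Dppa4 (-1.46 against FA, -0.83 against N2B27) and Dppa5a (-1.20 and -1.57) and missed the threshold for Dppa2 (-1.05, adjusted p = 0.16, and -1.03, adjusted p = 0.070). That of Dppa5a against FA and that of Dppa4 against N2B27 were each lost without any 1 of 3 libraries. Mesoderm markers (T, Mixl1, Eomes, Kdr and Hand1) summed to 175 to 725 CPM in these late EB libraries, 25 to 91.6 in FA and 12.4 to 14.7 in N2B27, with none at 0 throughout, and their part was not tested.

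**Figure D3:**
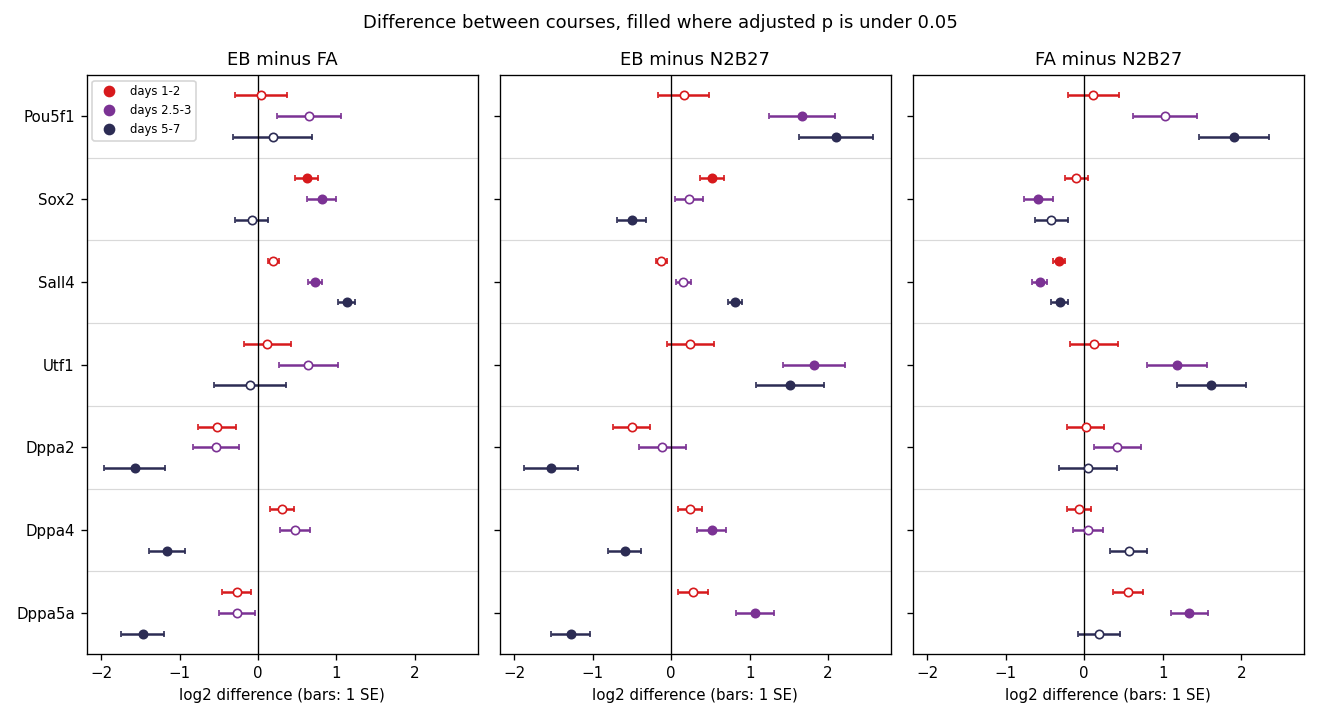
Log2 difference between courses (x axis, bars 1 SE) over both media for each gene and stage. Filled points have an adjusted p under 0.05. In the late EB comparisons Sall4 lies to the right (1.13 and 0.81) while Dppa2, Dppa4 and Dppa5a lie to the left (-0.59 to -1.57), and Pou5f1 and Utf1 are called to the right against N2B27 (2.10 and 1.52) and are not called against FA.

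The calls between courses were counted over the 7 genes at each stage. EB against N2B27 gave 1 call early (30.0% of all genes called), 4 at mid days (38.1%) and 7 late (45.2%). The 7 late calls went both ways, with Pou5f1, Sall4 and Utf1 higher in EB and Sox2, Dppa2, Dppa4 and Dppa5a lower. EB against FA gave 1 call early (24.0%), 2 at mid days (27.7%), both higher in EB, and 4 late (18.9%), 1 higher and 3 lower. FA against N2B27 gave 1 early (1.63%), 4 at mid days (12.4%), with Utf1 and Dppa5a higher and Sox2 and Sall4 lower in FA, and 3 late (35.2%). The change from early to late was called for 3 genes for EB minus FA (8.56% of all genes called) and 5 for EB minus N2B27 (27.8%). For FA minus N2B27 it was called for 1, Pou5f1, with 18.1% of all genes called.

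After day 0 the media were compared over all courses. Early, 1 of 7 was called between 2iL and SL with 41.2% of all genes called, Dppa4 at 0.32 ± 0.124 (adjusted p = 0.042), and that call was lost in 5 of 6 alternatives and without any 1 of 14 of the 18 libraries. At mid days 0 of 7 was called by edgeR (15.4% of all genes), with 1 gene, Sox2, at an unadjusted p under 0.05, and 1 called by DESeq2. The early interval of the log2 difference was -0.41 to 0.62 for Utf1, which at day 0 had differed by -3.45, and -0.16 to 0.09 for Sall4. Late, 3 of 7 were called (4.51% of all genes), all lower from 2iL: Dppa2 (-1.40 ± 0.304, adjusted p = 0.0086), Dppa4 (-0.80 ± 0.184, adjusted p = 0.012) and Dppa5a (-1.05 ± 0.212, adjusted p = 0.0052). All 3 calls were lost without N2B27 day 5 from 2iL, and that of Dppa4 also without N2B27 day 7 from SL. The 3 genes were lower from 2iL in EB and in N2B27 at day 7, but not in FA. In FA at day 7 Dppa2 stood at 7.54 CPM from 2iL and 6.52 from SL, Dppa4 at 11.39 and 11.19, and Dppa5a at 92.3 and 67.7. The added comparison of the change from day 0 between media called 3 genes early (21.9% of all genes), 3 at mid days (24.9%) and 2 late (27%), with Utf1 at 3.56 ± 0.630, 3.0 ± 0.660 and 2.69 ± 0.680 and Dppa4 at 1.51 ± 0.314, 1.43 ± 0.328 and, late and not called, 0.40 ± 0.352. The late call of Utf1 was lost without EB day 5 from 2iL (adjusted p = 0.05).

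Timing by gene can be read from the first day on which a library was under 50% of the day 0 level. Sox2 was first under it at day 1.5 in N2B27 from both media and in FA from SL, and at day 5 (2iL) or day 3 (SL) in EB. Dppa5a was under it at day 1.5 or 2 in N2B27, 2.5 or 3 in FA and 2 or 3 in EB, where it was under it before Sox2. Pou5f1 was under it at day 2.5 (2iL) or day 2 (SL) in N2B27, and in both media at day 3 in FA and day 7 in EB. Dppa2 was under it at day 3 in N2B27 from both media. Dppa4 was under it at day 5 from 2iL and day 2.5 from SL in N2B27, and its day 0 level was 2.48 times higher in SL. Sall4 was never under it in EB, nor in any course from SL, and Utf1 never from 2iL. These days are single libraries and carry no test, and in N2B27 from 2iL Sox2 went back above the mark at days 3 and 5.

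**Figure D4:**
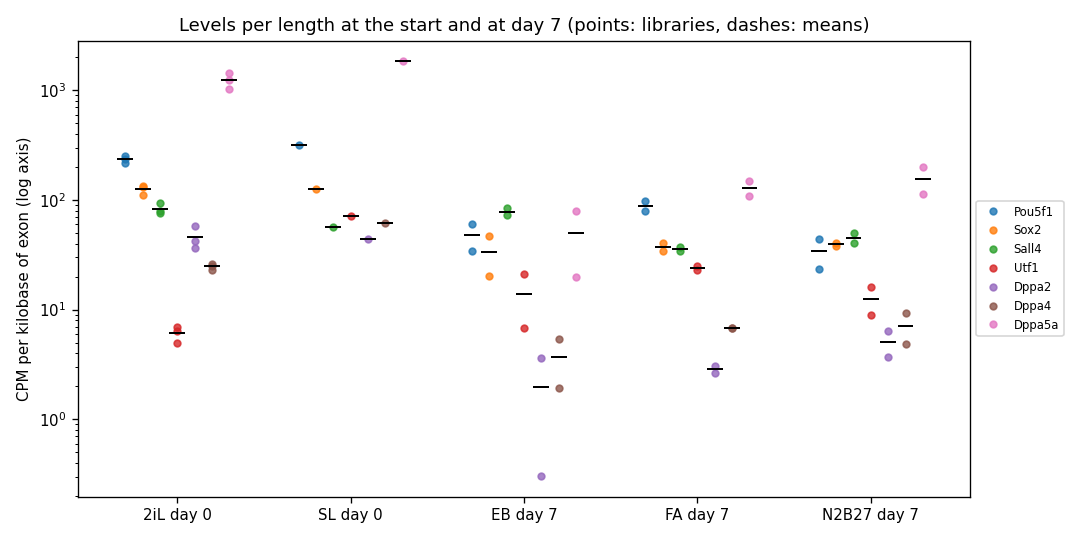
CPM per kilobase of exon (log axis) of the 7 genes in day 0 libraries of each medium and in day 7 libraries of each course. Points are libraries and dashes are means. Dppa5a is highest at day 0 (1233 in 2iL, 1836 in SL) and Sall4 is highest at day 7 in EB (78.4).

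Levels can be set between genes only per length of exon. In 2iL at day 0 the order was Dppa5a (1233 ± 196 CPM per kilobase, SD, n = 3), Pou5f1 (235.3 ± 16.9), Sox2 (124.6 ± 12.9), Sall4 (82.3 ± 9.60), Dppa2 (45.5 ± 11.2), Dppa4 (24.8 ± 1.55) and Utf1 (6.11 ± 1.05), and no 2 neighbours overlapped over the 3 libraries. In SL the first 3 were the same and Utf1 (71.8), Dppa4 (61.4), Sall4 (56.8) and Dppa2 (44.4) followed, in 1 library. At day 7 the order differed by course. In EB Sall4 (73.1 to 83.6) was followed by Dppa5a (19.9 to 79.5), Pou5f1 (34.1 to 60.8) and Sox2 (20.03 to 46.95), whose ranges over the 2 media overlapped. In FA Dppa5a (109.4 to 149.1) and Pou5f1 (78.9 to 96.8) stood apart, while Sox2 (34.2 to 40.5) and Sall4 (34.4 to 37.1) overlapped. In N2B27 Dppa5a (113.7 to 198.5) stood apart and Sall4 (40.3 to 49.8), Sox2 (38.2 to 40.6) and Pou5f1 (23.6 to 44.2) overlapped.

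Across the 45 libraries, on the log2(CPM + 1) scale, the closest pair among the 7 was Dppa2 and Dppa4 (Pearson's r = 0.953), followed by Dppa2 and Dppa5a (0.941) and Dppa4 and Dppa5a (0.906). Pou5f1 was nearest to Dppa5a (0.750), Dppa4 (0.733) and Utf1 (0.711), and was at 0.428 with Sox2. By Spearman's rho the pair of Pou5f1 and Sox2 was closer (0.648), above Pou5f1 and Utf1 (0.608). Sall4 stood apart from the rest, with r of 0.186 to 0.498. Sox2 had r of 0.0774 (with Utf1) to 0.620 (with Dppa5a). The libraries share courses, days and depth, so these are descriptions. Over all genes tested, the 3 with the highest r were Etv5, Deptor and Slc35f2 for Pou5f1 (0.940 to 0.924), Zfp710, Brca1 and Wdr76 for Sox2 (0.848 to 0.840), and Zfp607, Helz and Dxo for Sall4 (0.801 to 0.743). For Utf1 they were Pdk1, Sned1 and Spry4 (0.932 to 0.922), the last a feedback inhibitor of receptor tyrosine kinase signalling. For Dppa2 they were Zfp534, Gm21411 and Gm8935 (0.978 to 0.975), for Dppa4 Dppa2, Gm21411 and Gm13154 (0.953 to 0.950) and for Dppa5a Inpp5d, Depdc7 and Dppa2 (0.945 to 0.941). Ranked by Spearman's rho instead, none of the 3 was shared for Pou5f1, Utf1, Dppa4 and Dppa5a, 1 for Sall4 and 2 for Sox2 and Dppa2.

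Other gene lists place the 7 in the course of differentiation. At day 1, 38.0% (2iL) and 21.9% (SL) of all genes were called against day 0, and late 69.1% and 44.9%. Of the naive factors, 8 of 10 fell from 2iL to day 1 (median log2 change -2.11), among them Tfcp2l1 (-3.10), Prdm14 (-2.98) and Klf4 (-2.35), while Nr0b1 rose (1.76). From SL 6 of 10 fell (median -1.48). Late, 10 of 10 had fallen from both media, with medians of -5.65 and -3.72. Markers of the primed epiblast rose in the same day in which Utf1 did, 4 of 4 from 2iL (median 4.5; Fgf5 5.87, Pou3f1 5.45, Otx2 3.55 and Dnmt3b 2.20) and 3 of 4 from SL (median 2.72). Among 13 relatives of the members (other Pou, Sox and Sall genes), 9 rose and 3 fell to the late days from 2iL and 9 rose and 1 fell from SL. Sox11 rose by 6.75 and Sox4 by 5.61 on the log2 scale from 2iL, Sox3 by 4.52 and Pou3f2 by 4.20. Of 4 germ cell markers (Prdm1, Dppa3, Nanos3 and Tfap2c), 3 fell from 2iL to day 1 and 3 to the late days (median -4.00). From SL 1 of 4, Tfap2c, fell at day 1 and late, with medians of -0.206 and -0.0159. Dppa3 and Nanos3 had little room to fall from SL. They stood at 0.823 and 0.0549 CPM in its day 0 library, against means of 17.13 and 2.6 CPM in 2iL.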

How the data were processed

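Gene counts of 45 libraries were used. Per the labels and the study's methods, the authors depleted ribosomal RNA, made directional libraries, trimmed reads with TrimGalore, aligned them with TopHat2 to GRCm38/mm10 and counted them by strand with featureCounts on Ensembl release 82; versions are not given in the sources used here. The deposited values are raw counts per gene (13093226 to 39804240 per library, 3 counts being 0.165 CPM at the median total). A total of 435 rows without a symbol (at most 0.0014% of counts) were kept. No pair of libraries of 1 medium and day agreed within sampling noise.

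CPM were taken over the library total, with Wilson intervals at 95% that cover counting error only. Counts were fitted with edgeR 4.0.16 (R 4.3.3; TMM, filterByExpr, robust quasi-likelihood test, Benjamini-Hochberg adjustment, threshold 0.05) over 17107 genes in 1 model of all 45 libraries: a term for each medium and day, and course terms within the early, mid and late days (22 columns, 23 residual degrees of freedom). Medium differences of late courses came from a model with course terms per medium. Differences between media in the change from day 0 were added after seeing the data. The scripts were tested on simulated data.

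The text names the 7 genes, for each the 3 genes of highest Pearson correlation on log2(CPM + 1), and at most 4 genes a list by size of change, apart from exceptions named to complete a count. Members and lists were chosen with earlier results of these data known. Alternatives were DESeq2 1.42.0, library totals, no filter, single media, no course terms, each course and each of the 45 libraries left out. Positions are from GENCODE M21, and promoters from RefSeq. Python 3.11.15, pandas 2.3.3 and scipy 1.17.1 were used.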

Additional observations from a re-analysis of the deposited data

Results flagged for a closer look

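The results below were singled out because an effect differed between 2 sets of libraries by a test of the difference itself (edgeR quasi-likelihood test, adjusted p under 0.05), and all values are log2 differences. No group held 4 to 10 libraries, so none was searched for single libraries that stand apart.

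Between the early and the late days, the difference of EB and FA changed by 0.932 for Sall4, -1.46 for Dppa4 and -1.20 for Dppa5a. The difference of EB and N2B27 changed by 1.94 for Pou5f1, -1.02 for Sox2, 0.938 for Sall4, -0.83 for Dppa4 and -1.57 for Dppa5a. That of FA and N2B27 changed by 1.79 for Pou5f1.

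Late, Sox2 differed between the media by -1.44 in EB minus FA and by -1.19 in EB minus N2B27.

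The change from day 0 differed between 2iL and SL at day 1 by -0.629 for Sall4, 3.76 for Utf1 and 1.48 for Dppa4. Early it differed by -0.683 for Sall4, 3.56 for Utf1 and 1.51 for Dppa4. At mid days it differed by -0.727 for Sall4, 3.0 for Utf1 and 1.43 for Dppa4. Late it differed by -0.829 for Sall4 and 2.69 for Utf1. These rest on the single day 0 library from SL.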

How the results depend on the processing

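Of 217 differences (7 genes in 31 comparisons), 89 were called. Of these, 49 were called in every setting run and 40 were lost in at least 1; 48 that were not called changed sign somewhere. Depth limits only the lowest values, and the single library of most conditions limits the rest.

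Among differences called as reported or in the alternative, 3 turned direction between the fits. Sox2 late in EB minus N2B27 was 0.0453 with only libraries from SL. Sox2 late in 2iL minus SL ranged from -0.357 without the N2B27 course to 0.419 without the EB course. The late difference between media in the change of Pou5f1 from day 0 was -0.89 without the EB course (adjusted p = 0.028) and ran from -1.21 without EB day 5 from 2iL to 0.554 without N2B27 day 5 from 2iL, against 0.00505. The cause was not tested.

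Counts of the 7 genes called moved as follows. From 2iL, early calls were 3 with only libraries from 2iL (replicate block by course) and 3 with no replicate block, against 5, and mid calls 3 with no replicate block, against 6. Only the 3 day 0 libraries from 2iL have course names, so the block could be fitted from 2iL alone. From SL at day 1 they ran from 0 without the N2B27 course to 3 without EB, against 1; early 1 with no filter, and 1 to 3 without 1 course or library, against 2. Early, EB minus FA gave 2 with DESeq2 and 1 to 2 without 1 library, against 1. FA minus N2B27 gave 2 with DESeq2, 0 in either medium alone and 0 to 1 without 1 library, against 1. 2iL minus SL gave 0 with library totals or no filter and 0 to 1 without 1 course or library, against 1. At mid days, EB minus N2B27 gave 1 (only 2iL) and 2 (only SL), against 4. FA minus N2B27 gave 1 (only 2iL) and 2 to 4 without 1 library, against 4. 2iL minus SL gave 1 with DESeq2 and 0 to 1 without 1 course, against 0. Late, EB minus FA gave 2 and EB minus N2B27 gave 4 with only SL, against 4 and 7. FA minus N2B27 gave 0 with only 2iL, against 3, and 2iL minus SL gave 0 to 5 without 1 course or library, against 3. From early to late, EB minus FA gave 2 to 5 without 1 library, against 3. FA minus N2B27 gave 2 with DESeq2 and 0 to 3 without 1 library, against 1. The late differences between media gave 1 to 2, 0 to 1 and 0 to 1 without 1 library for EB minus FA, EB minus N2B27 and FA minus N2B27, against 1, 1 and 0. The added late comparison gave 1 to 3 without 1 course or library, against 2.

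Counts over all genes that moved by over 1.5 times are given with the reported count in parentheses. With DESeq2, early FA minus N2B27 gave 642 (279) and the late differences between media 855 (520), 334 (135) and 32 (2). With library totals, early FA minus N2B27 gave 1337 (279), and with no replicate block 2iL day 1 gave 3710 (6508). With only 2iL, early EB minus FA gave 2409 (4109), early EB minus N2B27 3335 (5127), mid FA minus N2B27 516 (2129), late EB minus FA 1514 (3241) and late FA minus N2B27 2536 (6024). With only SL, the early counts were 2378 (4109), 2936 (5127) and 16 (279), the mid counts 2160 (4739), 4290 (6516) and 540 (2129), each for EB minus FA, EB minus N2B27 and FA minus N2B27, and late EB minus N2B27 4518 (7729). Late 2iL minus SL gave 1286 without EB, 249 without FA and 186 without N2B27 (772), and mid 855 without FA and 1599 without N2B27 (2635). SL day 1 gave 2108 without FA and 2440 without N2B27 (3744), early 2iL minus SL 4350 without FA (7042), and the difference between media in the day 1 change 1271 and 1291 (2359). Library totals moved the median gene by over 0.1 in 6 of 31 comparisons (-0.108 to 0.136), and none of the 12 genes called there changed direction relative to it.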
